A study of Mus musculus with 8 samples.

Results

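The type I interferon-stimulated genes were followed in liver RNA of male congenic mice as a list of 37 genes, each found on the array through the accession of its probe and its mouse RefSeq symbol, current or former. A probe was found for 36 members, and 34 members could be measured among 42982 features tested over the whole array. Of the others, Oas1a had no probe, Mx2 stood well above background on 0 of 8 arrays, and Ifi44 had its spot marked as an outlier by the scanner software on 7 of 8 arrays. The 34 measured members lie on 13 chromosomes, and 0 of them on chromosome 18.

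All mice carried the background of the New Zealand Obese strain (NZO/HiBomDife), crossed with C57BL/6J, and a stretch of chromosome 18, 5.3 Mbp long, set the genotypes apart. They were Ltg/NZO.5.3N/N, called NN here (4 arrays, sample numbers 1, 4, 6 and 7), and Ltg/NZO.5.3N/B, called NB (4 arrays, sample numbers 2, 3, 5 and 8). Both groups were male, ate a high fat diet (45% fat) and were sampled at 5 weeks. Liver RNA was labelled with Cy3 and hybridised to 8 custom 1-colour Agilent arrays on 1 slide, where each slide column held 1 array of each genotype. Whether the arrays came from 8 separate animals is not stated, and every p-value measures only the spread between these samples. Values below are log2 processed signals relative to the 75th percentile of the same array, and differences are NB minus NN. The scale of 1 gene cannot be set against that of another, because each probe has its own brightness.

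Type I interferons bind a receptor made of Ifnar1 and Ifnar2, and the kinases Jak1 and Tyk2 then activate a complex that holds Stat2 and Irf9 and binds interferon-stimulated response elements in the promoters of target genes. The products restrict viruses at several steps, from sensing foreign RNA to blocking translation, nucleotide supply and budding. In liver, hepatocytes and resident macrophages both carry this response, and part of it is expressed at a low tonic level without infection.

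The members' promoters were searched for the response element, which only part of the list carried. RefSeq promoter windows of the GRCm38.p6 build, from 250 bases before to 50 bases after a gene's start, existed for 26 of the 37 members. The core GAAANNGAAA, searched on both strands, was in 13 of 26 members, against 3.99% of 27025 genes (3.44% of 32851 windows). The longer form GAAANNGAAACT, which contains the core, was in 7 of 26 members (26.9%), against 0.303% of genes (0.271% of windows). The gamma-activated sequence TTCNNNGAA was in 6 of 26 members (23.1%), against 9.55% of genes (8.3% of windows). A match describes the letters in the window and does not show that a factor bound there.

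Stretches around the core are printed 5′ to 3′ along the gene's strand for members described below, with the matched bases in capitals. Where the core lies on the opposite strand, the capitals read as its reverse complement, TTTCNNTTTC. The stretches lie at chr19:34640760-34640838 (Ifit1, plus strand), chr19:34583348-34583441 (Ifit3, plus), chr4:156200850-156200921 (Isg15, minus), chr5:120887614-120887656 (Oas1g, minus), chr5:120777700-120777759 (Oas3, minus), chr12:26456538-26456597 (Rsad2, minus), chr8:71537562-71537627 (Bst2, minus) and chr10:128270251-128270310 (Stat2, plus). For Irf1, at chr11:53769899-53769957 (plus), the capitals mark TTCNNNGAA.
Ifit1: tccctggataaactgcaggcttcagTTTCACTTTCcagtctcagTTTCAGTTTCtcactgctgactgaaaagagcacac
Ifit3: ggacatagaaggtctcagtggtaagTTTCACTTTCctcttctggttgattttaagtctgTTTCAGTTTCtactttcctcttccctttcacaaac
Isg15: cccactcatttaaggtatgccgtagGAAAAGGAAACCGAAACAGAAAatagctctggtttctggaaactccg
Oas1g: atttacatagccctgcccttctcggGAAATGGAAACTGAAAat
Oas3: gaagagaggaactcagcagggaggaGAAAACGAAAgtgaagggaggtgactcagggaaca
Rsad2: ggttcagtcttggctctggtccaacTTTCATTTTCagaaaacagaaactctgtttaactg
Bst2: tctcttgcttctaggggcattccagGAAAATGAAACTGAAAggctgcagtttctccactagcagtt
Stat2: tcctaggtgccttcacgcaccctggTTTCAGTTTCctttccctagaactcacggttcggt
Irf1: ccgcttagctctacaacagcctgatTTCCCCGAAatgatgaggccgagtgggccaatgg

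Isg15 holds 3 overlapping core matches in this stretch, Bst2 and Oas1g 2 each that overlap, and Ifit1 and Ifit3 2 each that stand apart. The stretch of Ifit3b at chr19:34607744-34607837 has the same letters as that of Ifit3 at 94 of 94 bases, so this window does not tell the paralogs apart. Their probes do differ: the longest run of bases that the Ifit3 and Ifit3b probes share is 4. The remaining matches were in Oas1a, which had no probe, and in Ddx58, Ifih1 and Eif2ak2, where the match lay after the start.

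No member passed the test between genotypes at an adjusted p of 0.05 (limma, Benjamini-Hochberg over all features), where 3 of 42982 features did (0.00698%). At an unadjusted p under 0.05 the count was 0 of 34 members, against 1.69% of features (0.738% higher and 0.956% lower in NB), and the smallest unadjusted p of a member was 0.0985, for Ifi27l2a. All 34 members had an adjusted p of 1.00. Of the members, 19 had a positive difference (55.9%) and 15 a negative one, where 45.9% of features were positive. The median difference of the members was 0.02 and that of all features -0.0097. The difference ran from -0.15 for Ifit3 to 0.32 for Ifi27l2a, and the arrays of the genotypes overlapped for all 34 members, where 1.16% of features had no overlap.

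The 95% confidence intervals set how large a difference could be present and still be compatible with these arrays. All 34 intervals included 0. Of the 34, 7 lay within 1.2-fold in either direction, 32 within 1.5-fold and 34 within 2-fold. The widest was that of Zbp1, from 0.632 to 1.66 as a ratio of NB to NN, and the median interval extended 0.24 on the log2 scale to either side of the estimate. In whole liver RNA, fewer cells of a type and less RNA per cell cannot be told apart.

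**Figure D1:**
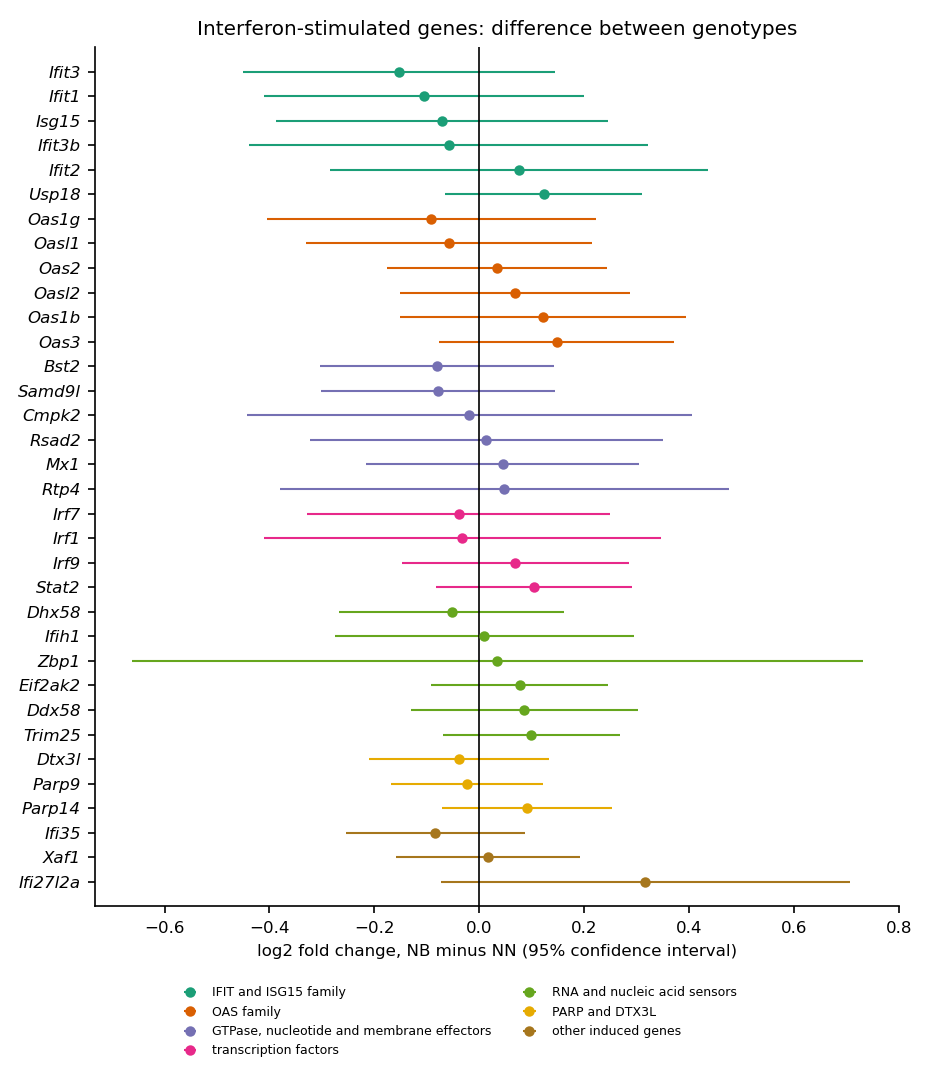
Log2 fold change, NB minus NN, with the 95% confidence interval from limma for the 34 measured members, coloured by role (4 arrays per genotype). All intervals cross 0, and the points run from -0.15 (Ifit3) to 0.32 (Ifi27l2a).

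Among the IFIT proteins, which bind foreign RNA and block its translation, and the Isg15 system, 2 of 6 members had a positive difference and the median was -0.06. Ifit3, a partner of Ifit1 in RNA binding, gave -0.20, -0.43, -0.44 and -0.70 on NN 1, 4, 6 and 7, and -0.35, -0.63, -0.82 and -0.59 on NB 2, 3, 5 and 8. The difference was -0.15 (SE 0.131, n = 4 and 4, adjusted p = 1.00), the lowest of the 34. The lowest array was an NB array and the highest an NN array, but the groups overlapped.

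Isg15, a ubiquitin-like protein attached to other proteins, gave 1.91, 1.61, 2.30 and 2.07 on the same NN arrays and 1.86, 1.81, 1.98 and 1.96 on the NB arrays. Its NN arrays held both the lowest and the highest value, and all 4 NB arrays lay between them, with a difference of -0.07 (SE 0.139). Usp18, the protease that removes Isg15 and also damps the interferon receptor, gave 0.77, 0.70, 0.70 and 0.64 in NN and 0.87, 0.84, 0.66 and 0.95 in NB. Its difference was 0.12 (SE 0.0827): 3 NB arrays stood above all NN arrays, while NB 5 lay inside the NN range. For the other members of this group the differences were -0.10 (Ifit1), 0.08 (Ifit2) and -0.06 (Ifit3b).

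The oligoadenylate synthases make a messenger from ATP on double-stranded RNA that activates RNase L, and 4 of 6 measured members had a positive difference, with a median of 0.05. Oas3, the synthase most responsive to long double-stranded RNA, gave -1.28, -1.12, -1.15 and -1.34 in NN and -0.97, -0.92, -1.16 and -1.25 in NB. NB 2 and NB 3 stood above all NN arrays and the other NB arrays lay inside the NN range, with a difference of 0.15 (SE 0.0987). Oas1g gave 2.62, 2.44, 2.97 and 2.98 in NN and 2.78, 2.74, 2.62 and 2.50 in NB, a difference of -0.09 (SE 0.138). The NB values all lay inside the NN range.

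Oas1b is the family member known for flavivirus resistance, but its probe here belongs to a RefSeq record of a non-coding transcript. It stood well above background on 3 NN and 4 NB arrays and differed by 0.12 (SE 0.12). Oas2 differed by 0.03, Oasl2, a synthase-like protein, by 0.07, and Oasl1, which represses translation of Irf7 mRNA, by -0.06.

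The GTPase, nucleotide and membrane effectors held some of the most variable members, with 3 of 6 positive and a median of 0.00. Bst2, or tetherin, holds budding virus at the cell surface. It gave 3.70, 3.80, 3.93 and 4.07 in NN and 3.79, 3.87, 3.67 and 3.84 in NB, a difference of -0.08 (SE 0.0985) with NB 5 the lowest array and NN 7 the highest. Rtp4, a chaperone-like protein that limits flavivirus replication, gave 3.56, 3.36, 3.09 and 3.36 in NN and 3.94, 3.31, 3.27 and 3.04 in NB. NB 2 was the highest array and NB 8 the lowest, and the difference was 0.05 (SE 0.188). Cmpk2, a mitochondrial nucleotide kinase encoded beside Rsad2, gave -4.47, -4.40, -4.68 and -5.03 in NN and -4.45, -5.00, -4.86 and -4.35 in NB. NN 7 was its lowest array and NB 8 its highest, and its difference was -0.02 (SE 0.187). Of the others, Mx1 differed by 0.05. It can encode a dynamin-like GTPase that blocks influenza viruses, but its probe here belongs to a RefSeq record of a non-coding transcript. Rsad2 (viperin), which makes a chain-terminating nucleotide, differed by 0.01, and Samd9l, a translation inhibitor, by -0.08.

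Of the transcription factors, 2 of 4 were positive, with a median of 0.02. Irf7, which amplifies interferon transcription, gave 4.28, 4.01, 4.52 and 4.41 in NN and 4.31, 4.06, 4.25 and 4.43 in NB, a difference of -0.04 (SE 0.127). The lowest and the highest value were both from NN arrays. Stat2, the subunit that carries the activation domain of the interferon-activated complex, gave 2.42, 2.29, 2.31 and 2.41 in NN and 2.59, 2.47, 2.47 and 2.31 in NB. Here 3 NB arrays stood above all NN arrays and NB 8 lay inside the NN range, with a difference of 0.10 (SE 0.0823). Irf9, the DNA-binding subunit of the same complex, differed by 0.07. Irf1, which responds to both interferon types, differed by -0.03, and its other probe by 0.15 (SE 0.183). Of the 3 members with more than 1 probe it alone had probes of opposite sign.

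Of the sensors of foreign nucleic acid, 5 of 6 were positive, with a median of 0.06. Trim25, a ubiquitin ligase that acts on RIG-I signalling, gave 4.39, 4.27, 4.38 and 4.27 in NN and 4.44, 4.50, 4.45 and 4.32 in NB. Of the NB arrays, 3 stood above all NN arrays, and NB 8 lay inside the NN range, with a difference of 0.10 (SE 0.0745). Zbp1, which binds Z-form nucleic acid and can start necroptosis, gave -0.35, -0.59, 0.92 and 0.00 in NN and -0.37, 0.00, 0.28 and 0.20 in NB. It was the least reproducible member: NN 4 and NN 6 differed by more than the genotypes (difference 0.03, SE 0.307). The 3 RIG-I-like receptors differed by 0.09 (Ddx58, RIG-I itself), 0.01 (Ifih1, MDA5) and -0.05 (Dhx58, LGP2). The kinase Eif2ak2 (PKR), which halts translation, differed by 0.08.

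Parp14, an ADP-ribosyltransferase, gave 2.26, 2.32, 2.23 and 2.22 in NN and 2.41, 2.40, 2.34 and 2.25 in NB, a difference of 0.09 (SE 0.0717). NB 2, 3 and 5 stood above all NN arrays, and NB 8 lay inside their range. Parp9 and its partner Dtx3l, a ubiquitin ligase, differed by -0.02 and -0.04. Parp9 was also the steadiest member, with its highest array 1.06-fold above its lowest.

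Ifi27l2a, a small hydrophobic membrane protein induced strongly by interferon, had the largest positive difference of the list. It gave 0.09, 0.00, 0.59 and 0.57 in NN and 0.30, 0.73, 0.82 and 0.66 in NB. NN 1 and NN 4 were the lowest arrays, NB 3, 5 and 8 were the highest, and NB 2 stood below NN 6 and NN 7. The difference was 0.32 (SE 0.171, 95% interval -0.07 to 0.71), a 1.25-fold ratio with an adjusted p of 1.00. With slide column as a block the unadjusted p was 0.0449 and the adjusted p remained 1.00. Ifi35, a leucine zipper protein, gave 1.32, 1.41, 1.54 and 1.44 in NN and 1.28, 1.39, 1.38 and 1.32 in NB, a difference of -0.08 (SE 0.075). NB 2 and NB 8 lay below all NN arrays and the other NB arrays inside their range. Xaf1, which binds an inhibitor of apoptosis, differed by 0.02.

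**Figure D2:**
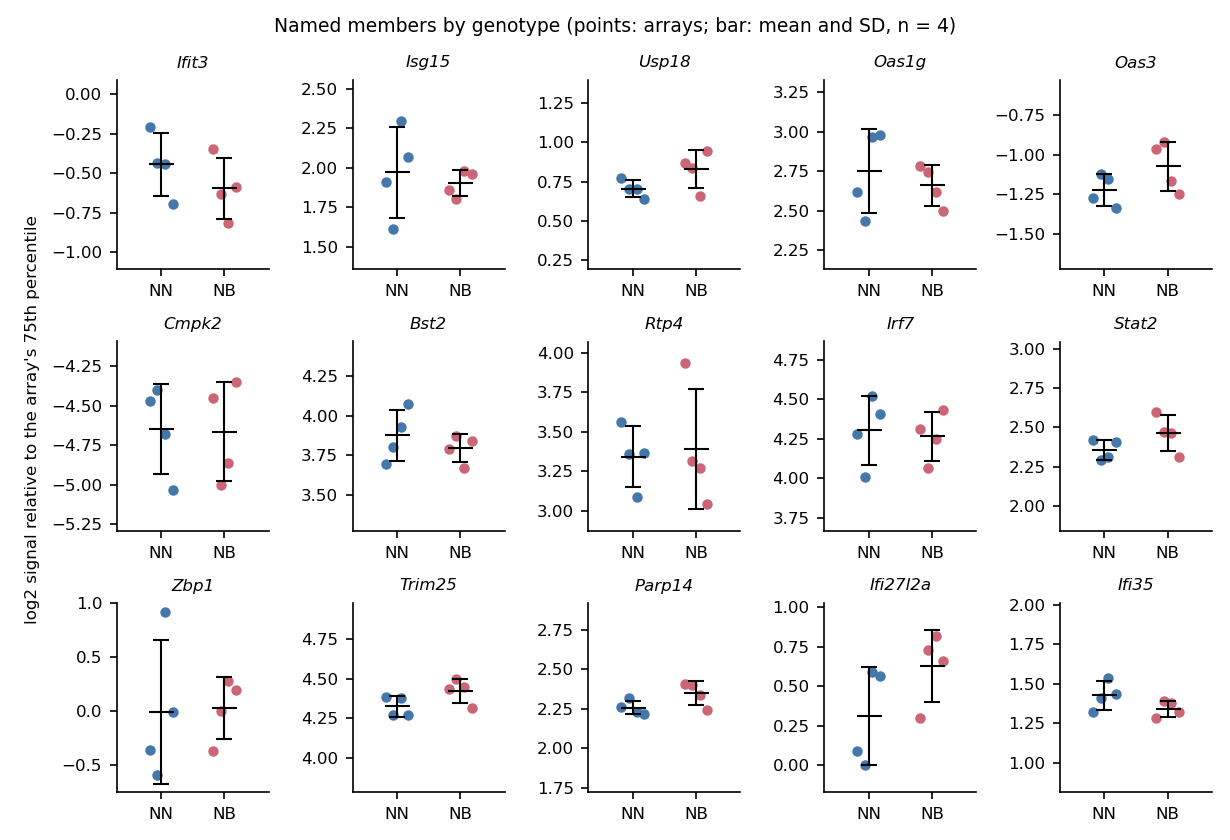
Log2 signal relative to the array's 75th percentile for the 15 members described array by array, in NN and NB, with points for arrays and bars for mean and SD (n = 4). The arrays of the genotypes overlap in every panel, and the vertical scale differs between panels.

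Ifi44, the member left out for its spot marks, was also read with those spots kept, an alternative chosen after seeing the data. It then gave 3.16, 1.57, 1.47 and 2.67 on NN 1, 4, 6 and 7, where only NN 6 was unmarked, and 2.08, 2.30, 1.60 and 1.07 on NB 2, 3, 5 and 8. The NB arrays other than NB 8 lay inside the NN range, and the difference was -0.46 (SE 0.418, unadjusted p = 0.304). In all, 207 probes on the array were marked on 7 or more arrays.

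Spread between arrays was compared with that of other features. The pooled SD within genotype had a median of 0.15 over the members and 0.17 over all features, and 16 of 34 members lay above the latter. The highest array exceeded the lowest by less than 1.2-fold in 7 members and by more than 1.5-fold in 10. Zbp1 had the largest SD (0.51), above that of 95.8% of features, and its arrays spanned 2.85-fold. Rtp4 (0.30), Cmpk2 (0.30) and Ifi27l2a (0.27) followed.

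Part of this spread was shared by arrays of different genotype in slide column 1, where slide position and the samples themselves cannot be told apart. NN 1 and NB 2, which shared slide column 1 by the positions in the file names, were the 2 highest of the 8 arrays for 11 of 34 members (32.4%), against 8.87% of features. These were Ifit1, Ifit2, Ifit3, Ifit3b, Oasl1, Mx1, Rsad2, Samd9l, Rtp4, Ifih1 and Xaf1. In column 3 the same held for Zbp1 alone (2.94%, against 3.14% of features), and in columns 2 and 4 for 0 members. The mean of column 1 minus that of the other columns was positive for 26 of 34 members, with a median of 0.12, against 55.6% of features and a median of 0.03. It was 0.51 for Rtp4, 0.47 for Ifit2, 0.39 for Ifit3b, 0.36 for Ifih1 and 0.34 for Ifit1. Zbp1 (-0.49) and Ifi27l2a (-0.37) were on the other side.

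A second pattern set NN 4 apart. NN 4 was the lowest array for 12 of 34 members, against 8.08% of features, and the highest for 0. Together with NB 3, which shared its slide column 2, it held the 2 lowest values for 5 members, against 2.67% of features. NB 2 was the highest array for 13 members, against 15.2% of features. Isg15, Irf7 and Oas1g did not follow the column 1 pattern: all 3 were lowest on NN 4, and Isg15 and Irf7 were highest on NN 6. The mean deviation over the 34 members was 0.06 on NN 1, -0.10 on NN 4, 0.05 on NN 6 and -0.05 on NN 7. It was 0.10 on NB 2, 0.00 on NB 3, -0.05 on NB 5 and -0.03 on NB 8. Genotype means of this score were -0.01 ± 0.08 (NN, SD, n = 4) and 0.01 ± 0.07 (NB, SD, n = 4), while the 8 arrays spanned 0.21.

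**Figure D3:**
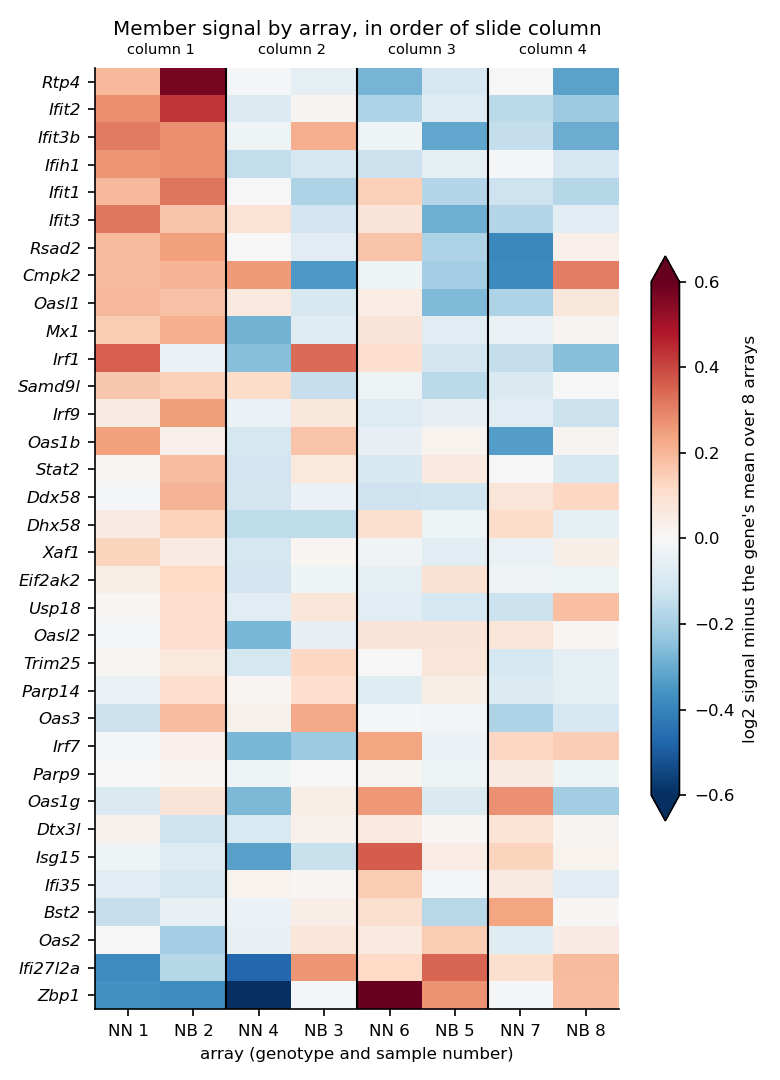
Log2 signal of the 34 measured members on the 8 arrays, minus each gene's mean over the arrays, in order of slide column and sorted by column 1 against the rest (colours end at 0.6 in either direction). Rtp4, Ifit2, Ifit3b, Ifih1 and Ifit1 are highest on NN 1 and NB 2, while NN 4 is the lowest array for 12 members.

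Because each column held both genotypes, the comparison was repeated within columns. The median difference of the members was 0.05 in column 1, 0.10 in column 2, -0.05 in column 3 and 0.01 in column 4. In the same order, 22, 25, 12 and 17 of 34 members were positive, against 42.2%, 51.6%, 47.7% and 51.9% of features. The medians of all features were -0.039, 0.0076, -0.0097 and 0.0099. Ddx58, Trim25, Parp14 and Ifi27l2a were higher in NB in all 4 columns, which held for 3.88% of features, and Ifi35 was lower in all 4, which held for 5.29%. Within slide rows the members' median was 0.06 in row 1 and -0.06 in row 2, against -0.014 and -0.0058 for all features. The sign of the members' median thus differed between these sets of arrays, where slide position and the samples themselves cannot be told apart.

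Technical and cellular measures also differed between these arrays. The share of probes well above background was 79.2% on NN 1 and 79.6% on NB 2, and 74.4% to 78.1% on the other 6. Kupffer cell markers (10 of 10 measured) had mean scores of -0.30 on NN 1, -0.20 on NB 2 and -0.30 on NN 4, and 0.10 to 0.21 on the other 5 arrays. Marco had the widest range of the 10, from -0.67 on NN 1 to 1.79 on NB 5. Not every marker followed the score: Timd4 gave -1.49, -1.46 and -1.46 on NN 1, NB 2 and NN 4. On the other 5 arrays Timd4 gave -1.59 to -1.31. Neutrophil markers (5 of 6 measured) had scores of -0.25 on NN 1, -0.53 on NB 2 and -0.54 on NN 4, and 0.03 to 0.51 on the others. Plasmacytoid dendritic cell markers, of the cell type that makes most type I interferon, had scores from -0.16 on NB 2 to 0.15 on NB 3 (5 of 6 measured). Cox6a2 had the widest range of the 5, from -4.27 on NB 2 to -3.11 on NB 3, while Siglech gave 5.76 and 5.77 on these arrays. Whether these probes read plasmacytoid dendritic cells in whole liver was not tested. The part of these measures in the column 1 pattern was not tested.

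Across genotypes, 9 of 10 Kupffer cell markers were positive (median 0.18), as were 6 of 7 monocyte markers (0.23), 5 of 5 neutrophil markers (0.06), 6 of 7 T and NK cell markers (0.10) and 3 of 5 plasmacytoid dendritic cell markers (0.02). For sinusoidal endothelium 5 of 6 were positive (0.02), for stellate cells 4 of 6 (0.05), for B cells 2 of 4 (-0.02) and for cholangiocytes 1 of 4 (-0.02). All 8 hepatocyte markers stood well above background on all 8 arrays of this tissue labelled liver, with 3 of 8 positive (median -0.02). No marker passed the test at an adjusted p of 0.05 (limma). Taking the marker lists together, 1 marker had an unadjusted p under 0.05, where 1.69% of features did. It was the hepatocyte urea cycle enzyme Cps1, at -0.30 (SE 0.127).

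**Figure D4:**
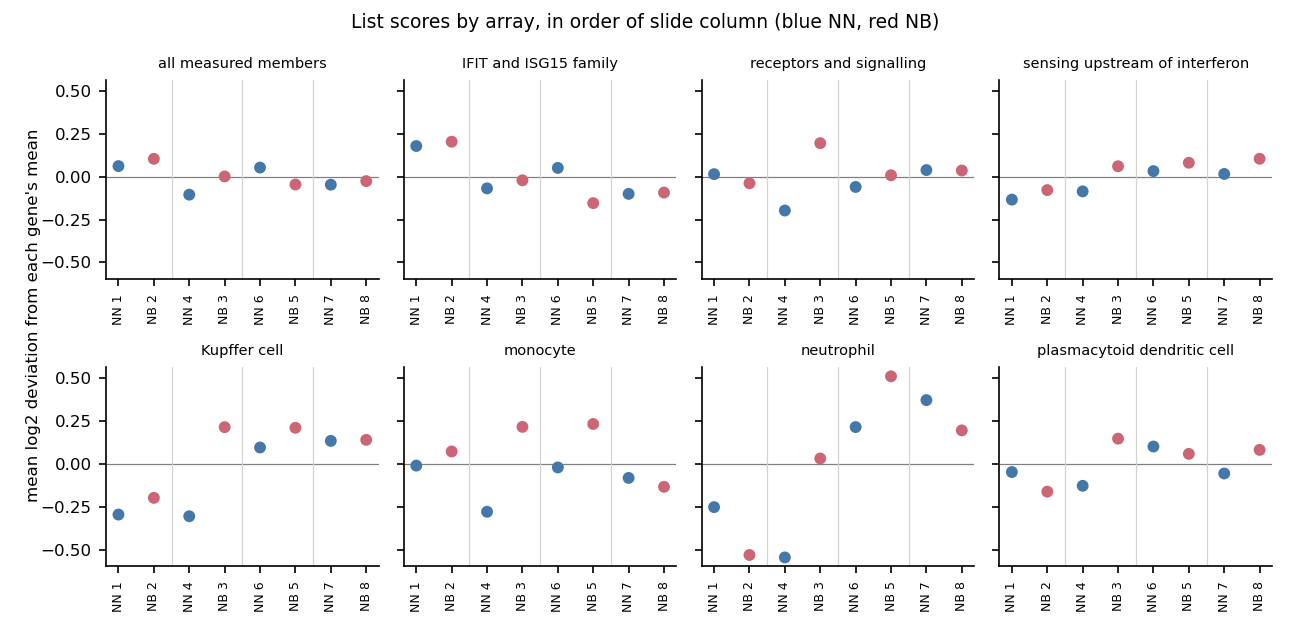
Mean log2 deviation from each gene's mean over 8 arrays, for the members, the IFIT and ISG15 group, receptors and signalling, sensing genes and 4 cell marker lists, by array in order of slide column (blue NN, red NB). The IFIT and ISG15 group is highest on NN 1 and NB 2, where Kupffer cell markers stand at -0.30 and -0.20.

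Genes around the members in the pathway were counted from further lists, 109 genes in all, of which 98 were measured. None was called at an adjusted p of 0.05 (limma). Only Irf8 and Ifi204, 2 of 98, had an unadjusted p under 0.05, both higher in NB, a share near the 1.69% of all features. In all 10 genes of the receptors and signalling list the difference was positive, with a median of 0.08, but NN 4 alone had a list score of -0.20 and NB 3 one of 0.20, with the other arrays between -0.06 and 0.04. Il10rb, a shared chain of the interferon lambda receptor, differed by 0.15 (SE 0.106). Ifnlr1, the other chain, differed by 0.43 (SE 0.328) but stood well above background on only 2 arrays of each genotype. Ifnar1 and Ifnar2, the type I receptor chains, differed by 0.03 (SE 0.0778) and 0.09 (SE 0.0929).

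Genes of sensing upstream of interferon had 14 of 16 positive differences and a median of 0.08. Their list score was -0.13 on NN 1, -0.09 on NN 4 and -0.08 on NB 2, and 0.02 to 0.10 on the other arrays. Irf8, a myeloid transcription factor that takes part in interferon induction, gave 0.35, 0.33, 0.39 and 0.56 on NN 1, 4, 6 and 7, and 0.62, 0.59, 0.79 and 0.61 on NB 2, 3, 5 and 8. All NB arrays stood above all NN arrays, which held for 0.426% of features, with a difference of 0.24 (SE 0.0845, unadjusted p = 0.0188, adjusted p = 1.00). Mb21d1, which encodes the DNA sensor cGAS, differed by 0.19 (SE 0.0856). Irf8 is also expressed by macrophages and dendritic cells, and the marker scores of these cells stand above; their part in the Irf8 difference was not tested.

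Of the interferon ligands 8 of 16 measured genes were positive, with a median of 0.01. Whether the signals of these 16 probes come from ligand RNA in this liver was not tested. Ifnb1 differed by 0.46 (SE 0.202) but stood well above background on only 2 of 4 NN arrays, and Ifna1 differed by 0.13 (SE 0.0761). Negative regulators of the pathway had 6 of 9 positive differences and a median of 0.04, with Samhd1 at 0.06 (SE 0.0776) and Ptpn11, a phosphatase, at -0.07 (SE 0.102). The enzymes that attach Isg15 had 2 of 3 positive, with the activating enzyme Uba7 at 0.16 (SE 0.121) and the ligase Herc6 at -0.10 (SE 0.103).

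Further interferon-stimulated genes outside the 37 members had 25 of 44 positive differences and a median of 0.03. Ifi204, a nuclear DNA-binding protein of the p200 family, gave 0.41, 0.24, 0.33 and 0.39 on the NN arrays, and 0.42, 0.63, 0.99 and 0.51 on the NB arrays in the same order as above. All NB arrays stood above all NN arrays, which held for 0.426% of features and for 1 of the 44 genes. The lowest NB value (0.42, NB 2) lay just above the highest NN value (0.41, NN 1). The difference was 0.30 (limma, SE 0.125, unadjusted p = 0.0427, adjusted p = 1.00). Ly6a, a surface protein induced by interferons, differed by 0.36 (SE 0.201).

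Members with and without the response element in their promoter window were set side by side as a description. Of the 12 measured members with the core, 6 had a positive difference, with a median of -0.02. Of the 12 measured members with a window and no core, 5 did, with a median of -0.03. The median SD within genotype was 0.19 with the core and 0.13 without it. Of the 11 genes highest on both column 1 arrays, 9 had a window and 5 of these held the core, where 13 of all 26 members with a window did.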

How the data were processed

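The deposited scanner files hold intensity values per spot, and per the file headers they were made with Agilent Feature Extraction 11.5.1.1 (the submitters' processing notes name 9.1), with background subtraction and spatial detrending but no normalization between arrays. The authors' value table holds linear intensities of 59448 probes on a scale not given in the sources used here, with the same sorted values in all 8 columns and a column median of 84.2. It was used only as an alternative. Accessions and spot marks, of unit other, were used as deposited.

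Spots marked as outliers (248 to 621 per array) were set missing, and 0 were saturated. The log2 processed signal was taken minus the array's 75th percentile (445 to 584.4 intensity units). Probes well above background on at least 4 arrays were kept, with the brightest probe per gene. NB and NN were tested in R 4.3.3 with limma 3.58.1 (lmFit, eBayes, two-sided, Benjamini-Hochberg over 42982 features, threshold 0.05), after the steps were tested on simulated data. The number of arrays limits the precision. Probe accessions gave 26698 genes a symbol through the RefSeq table of GRCm38.p6.

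The members and lists were chosen with earlier results of these data known. Arrays are described one by one for the 8 members with the smallest p, the 4 with the largest spread and the brightest of each of 7 roles, 15 in all. Of each pathway list the 2 genes with the smallest p are named; Ifnar1 and Ifnar2 are named as the type I receptor, after their values were seen. Of the pathway genes, 1 is counted in its list and not reported by name here. An array's score for a list is the mean, over the list's genes, of the signal minus the gene's mean over 8 arrays.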

Additional observations from a re-analysis of the deposited data

Results flagged for a closer look

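In 4 of 84 sets of 4 arrays (4.76%, where chance gives about 5%), 1 array stood apart from the other 3 by more than Dixon's 95% critical value. Ifit1 was 0.50 on NB 2 and -0.01 to 0.00 on the other NB arrays. Ifih1, the sensor MDA5, was 2.15 on NB 2 and 1.77 to 1.82 on the others. Dtx3l was 1.18 on NB 2 and 1.32 to 1.33 on the others, the only one of the 4 with NB 2 as the low array. Oas1b was -5.02 on NB 3 and -5.18 to -5.17 on the others. Ifit1 and Ifih1 were also high on NN 1, the array beside NB 2 in slide column 1.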

How the results depend on the processing

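The count of 0 called members and 0 called pathway genes was obtained under all 12 alternatives of processing, which included normexp, quantile scaling, the authors' value table, other filters, slide row or column as a block and an adjusted p of 0.1, and with each array left out in turn. At an adjusted p of 0.05, only 2 to 5 features of the whole array were called under any of these settings. A count of 0 members was therefore likely under each of them and does not measure how stable the result is. At an unadjusted p under 0.05 the members numbered 1 with slide column as a block and 1 without NN 6, Ifi27l2a in either case. Without NB 2 they numbered 2 (Ifi27l2a, and Ifit1 at -0.23 against -0.10 with all arrays). The share of all features under that threshold was not computed for these fits, so the counts have no background beside them. The members' median difference was -0.0049 to 0.03 over the 11 alternatives with a value and -0.03 to 0.07 with an array left out, and 16 to 20 and 13 to 21 members were positive, with the count of 13 found without NB 2. The share of all features that were positive also moved over the 11 alternatives, from 36% with normexp to 50.8% with the authors' value table. In receptors and signalling 8 to 10 genes were positive, and in sensing 11 to 14. For the 15 members described array by array, 272 of 285 alternatives kept the direction. The other 13 all left out 1 array: Cmpk2 ranged from -0.15 to 0.093, Irf7 from -0.14 to 0.033, Isg15 from -0.19 to 0.038, Rtp4 from -0.13 to 0.16 and Zbp1 from -0.16 to 0.34. With an array left out, Ifi27l2a ranged from 0.21 to 0.43, Ifit3 from -0.24 to -0.073, Oas1g from -0.20 to -0.014 and Bst2 from -0.14 to -0.015. The sample numbers are shared by no 2 arrays, so no block came from them; the paired fit used slide columns, each with 1 NN and 1 NB array. Keeping marked spots was an alternative chosen after seeing the data.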
